A study of Mus musculus with 6 samples.

Results

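The 10 genes described here encode ETS transcription factors that endothelial cells (ECs) are known to use: Ets1, Ets2, Erg, Fli1, Elk3, Etv2, Etv6, Elf1, Elf2 and Gabpa. They were taken by gene symbol from the 55416 genes in the count table, and all 10 were found. They were measured in mGFP-positive ECs sorted from E15.5 mouse heart ventricles, in 3 Control and 3 Wt1KO libraries, to ask what the deletion of Wt1 in ECs does to their transcripts. Both genotypes carried a single allele of the Pdgfb-CreERT2 driver, written Pdgfb-iCreERT2 by the study, and a single R26-mTmG reporter allele. The dams of both were gavaged with tamoxifen (75 mg/kg) between E11.5 and E13.5. Control embryos had wild-type Wt1 on both chromosomes, and Wt1KO embryos had a loxP-flanked Wt1 gene on both. Because recombination was driven by the Pdgfb promoter, the sorted cells are those in which that Cre was active, which the study places in the vessels of the compact myocardium. The library identifiers run in separate blocks for the 2 genotypes and no batch is named, so a batch that follows genotype and genotype itself cannot be told apart.

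ETS factors share a winged helix-turn-helix domain that binds DNA around a GGAA core. ERG and FLI1 are close relatives that maintain endothelial identity, ETS1 and ETS2 respond to growth factor signalling through ERK, and ELK3 is a ternary complex factor that binds DNA together with SRF. ETV2 is needed briefly in the early embryo to specify endothelial and blood progenitors. WT1, the factor deleted here, is a zinc finger protein that binds GC-rich DNA.

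The libraries held between 26037324 and 44779020 expected counts, so that 3 counts, taken as the floor of detection, correspond to 0.0608 to 0.119 CPM (counts scaled to library size and TMM factor). This floor covers counting error only. Wt1 itself was at 145, 110 and 149 CPM in the 3 Control libraries, and the Wt1KO libraries held 14.0, 18.4 and 21.3 CPM, a log2 fold change of -2.91 (edgeR adjusted p = 0.00319). Of the markers of the labelled cell type, 7 endothelial genes summed to between 4429 and 5666 CPM in Control and between 4501 and 5378 CPM in Wt1KO. The 7 erythroid markers, mostly globins, summed to between 6570 and 14347 CPM in Control and between 5107 and 8494 CPM in Wt1KO, above the endothelial sum in every library except Wt1KO replicate 2. The ribosomal RNA Rn18s took 13.2 to 15.3% of counts in Control and 21.1 to 26.5% in Wt1KO, and mitochondrial genes took 5.21 to 6.61% and 1.68 to 4.57%.

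Levels of different genes were compared as CPM per kb of exon. In Control ECs 4 of the factors stood above the rest. Ets2 was at 56.3 ± 3.8 CPM per kb (SD, n = 3), Ets1 at 54.6 ± 9.41, Elk3 at 36.1 ± 5.74 and Fli1 at 32.8 ± 4.21. Ets2 and Ets1 did not differ beyond their spread, and neither did Elk3 and Fli1. The lowest Ets1 library, at 46.8 CPM per kb, was still above the highest Elk3 library, at 42.0. A wide gap separated Fli1, whose lowest Control library was at 29.5 CPM per kb, from Gabpa, whose highest was at 12.0.

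The lower tier held Gabpa at 8.75 ± 3.17 CPM per kb (SD, n = 3), Elf1 at 7.54 ± 1.81, Erg at 6.15 ± 0.591, Etv6 at 5.86 ± 2.11 and Elf2 at 5.38 ± 0.908 in Control. Neighbours in this tier overlapped between libraries, and their order did not exceed the spread. Etv2 was at or below the floor in all but 2 libraries. In Wt1KO the order at the top was Ets2 at 59.5 ± 5.00 CPM per kb, Elk3 at 45.6 ± 2.99, Ets1 at 35.8 ± 2.99 and Fli1 at 32.7 ± 2.42. The order of near neighbours depended on the length used. Scaled to the longest coding transcript, Ets1 was at 91.0 and Ets2 at 87.7 CPM per kb in Control, and Ets1 at 59.8 and Elk3 at 56.9 CPM per kb in Wt1KO, so that Ets1 was then above Elk3 in both genotypes.

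**Figure D1:**
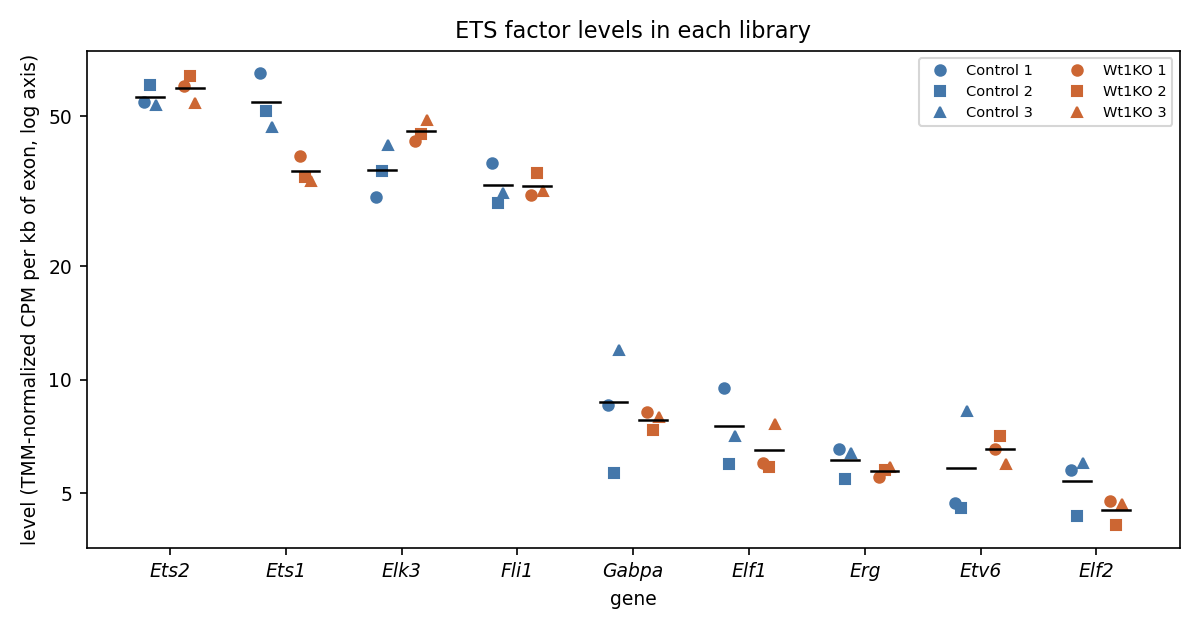
Level of each ETS factor in CPM per kb of exon (log axis), with 1 point per library, Control in blue, Wt1KO in orange, and a bar at the mean of 3 libraries; Etv2, near the floor, is left out. The Wt1KO points of Ets1 lie below all its Control points, those of Elk3 lie above, and the other factors overlap between genotypes.

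None of the 10 factors passed the edgeR test for a difference between genotypes (adjusted p under 0.05, with a log2 fold change beyond 0.58 in either direction), where 0.0736% of all 16296 genes tested did. DESeq2, the tool the study used, called 1 of 10, Ets1 (lower in Wt1KO), where it called 4.67% of all genes. Limma-voom called 0 of 10, where it called 0.0491% of all genes. At an unadjusted edgeR p under 0.05 the count was also 1 of 10, in the lower direction, against a background of 7.12% lower and 5.96% higher among all genes tested. Control and Wt1KO libraries were fully separated for Ets1, lower in Wt1KO, where 8.97% of all genes showed this, and for Elk3, higher in Wt1KO, where 10.3% of all genes did. In either direction these were 2 of 10 factors beside 19.3% of all genes, a share near the background. Over the 10 factors 6 had a negative and 4 a positive log2 fold change, with a median of -0.05, beside a median of -0.03 over all genes tested. In sorted bulk ECs, fewer cells of a type and less RNA per cell cannot be told apart.

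Ets1 encodes an activator that acts in angiogenesis and endothelial migration, and lies at chr9:32547517-32669116 on the plus strand (GRCm39). It was at 552, 439 and 398 CPM in Control replicates 1, 2 and 3, compared with 333, 293 and 286 CPM in Wt1KO replicates 1, 2 and 3. Every Wt1KO library was below every Control library, and the nearest pair was Control replicate 3 and Wt1KO replicate 1. The means were 463 ± 79.9 and 304 ± 25.4 CPM (SD, n = 3). The log2 fold change was -0.61 (SE 0.168, 95% interval -0.99 to -0.23), equal to a level 34.3% lower in Wt1KO with an interval of 14.6% to 49.5%. The edgeR adjusted p was 0.217, and that of DESeq2 was 0.0139. An exact permutation test of the 6 CPM values, two-sided, gave p = 0.1, the smallest that 3 libraries against 3 allow. The study had itself singled out Ets1 in these libraries, so its difference here is not independent evidence.

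Several cell type marker lists differed in level between the same libraries. The 9 leukocyte markers, a cell type in which Ets1 is also active, summed to 313 to 927 CPM in Control and 244 to 321 CPM in Wt1KO, and 9 of 9 had a negative log2 fold change, with 0 called by edgeR and 2 by DESeq2. With 1 library left out, the Ets1 log2 fold change ranged from -0.70 to -0.46. It was -0.46 without Control replicate 1 and -0.64 without Control replicate 2, the library with the leukocyte sum of 927 CPM. The mural cell markers summed to 466 to 632 CPM in Control and 324 to 379 CPM in Wt1KO. Of these, edgeR called 0 and DESeq2 3. The fibroblast markers summed to 679 to 982 and 1347 to 1554 CPM. Of these, edgeR called 1, Col1a1 (log2 fold change 1.34, edgeR adjusted p = 0.0441), and DESeq2 4. The endocardial markers summed to 285 to 369 and 672 to 810 CPM, with 6 of 6 genes higher, 1 called by edgeR and 3 by DESeq2. The edgeR call was Plvap, the largest member of this sum in Wt1KO, with means of 68.1 and 338 CPM (edgeR adjusted p = 0.00319). Nfatc1 had means of 185 and 219 CPM (log2 fold change 0.25). The dissociation response genes summed to 2655 to 3345 and 3750 to 4822 CPM, with 0 called by edgeR and 3 by DESeq2. The epicardial markers summed to 37.1 to 51.5 CPM in Control and 68.2 to 77.1 CPM in Wt1KO. Of these, edgeR called 0 and DESeq2 2. The lymphatic endothelial markers summed to 274 to 283 and 284 to 384 CPM, with 5 of 5 genes higher, 0 called by edgeR and 1 by DESeq2. Over all genes tested, edgeR called 0.0736% and DESeq2 4.67%. The part of these marker shifts in the Ets1 difference was not tested.

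Ets2, the closest relative of Ets1, showed no such difference. It was at 339, 376 and 333 CPM in Control replicates 1, 2 and 3, compared with 374, 398 and 336 CPM in Wt1KO. The libraries overlapped, and the log2 fold change was 0.08 (SE 0.144, 95% interval -0.25 to 0.40, edgeR adjusted p = 0.895). The interval reaches neither 0.58 nor -0.58, the fold limit of the test.

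The balance of Ets1 to Ets2 therefore differed between the libraries of the genotypes. Since Ets2 differed little, this ratio mostly restates the Ets1 values and is not further evidence. How often other gene pairs separate in this way was not measured. The length-scaled ratio of Ets1 to Ets2 was 1.19, 0.854 and 0.873 in Control replicates 1, 2 and 3 and 0.652, 0.538 and 0.623 in Wt1KO. No Wt1KO ratio reached the lowest Control ratio. The mean log2 ratio was -0.06 ± 0.269 (SD, n = 3) in Control and -0.73 ± 0.145 in Wt1KO, a difference of -0.67, described here without a test. Among the 10 factors, Ets1 made up 29.2, 25.4 and 21.9% of the summed length-scaled level in Control replicates 1, 2 and 3 and 19.1, 16.5 and 16.8% in Wt1KO. The share of Elk3 did not overlap either, at 13.7, 17.6 and 19.6% in Control and 21.0, 21.5 and 24.4% in Wt1KO. The sum itself was 214 ± 9.30 CPM per kb in Control and 205 ± 4.22 in Wt1KO.

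**Figure D2:**
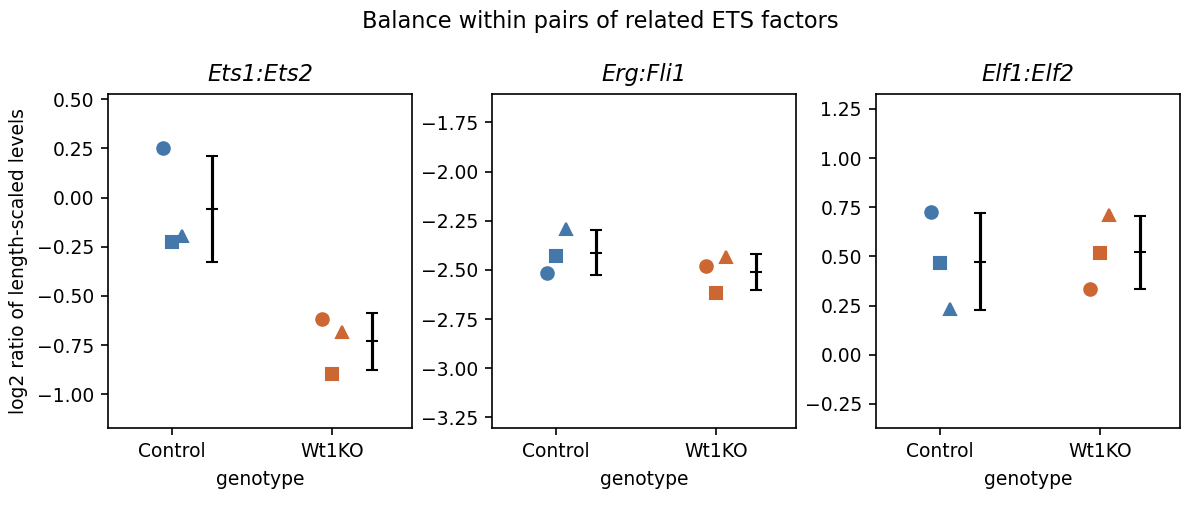
Log2 ratio of length-scaled levels within 3 pairs of related factors, with 1 point per library and the mean and SD of 3 libraries beside them; all 3 vertical axes span the same range. The Ets1:Ets2 ratios do not overlap between genotypes (difference -0.67), while Erg:Fli1 and Elf1:Elf2 do.

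Elk3, which encodes a factor that represses its targets until ERK phosphorylates it, was the member with libraries higher in Wt1KO. It lies at chr10:93083276-93147056 on the minus strand (GRCm39). It was at 177, 209 and 244 CPM in Control replicates 1, 2 and 3, compared with 250, 261 and 285 CPM in Wt1KO. In these TMM-scaled values the genotypes did not overlap, but Control replicate 3 came within 6.22 CPM of Wt1KO replicate 1. The log2 fold change was 0.34 (SE 0.164, 95% interval -0.03 to 0.71), and neither edgeR (adjusted p = 0.429) nor DESeq2 (adjusted p = 0.275) called it. On library size only the log2 fold change of Elk3 was 0.18, and the genotypes overlapped. Control replicate 3 held 7041 of 27211308 counts, a larger share than the 9786 of 42704156 in Wt1KO replicate 1. The marker shifts given for Ets1 apply to the same libraries, and their part in the Elk3 difference was not tested. Cdk17 and Elk3 share 19.4% of the exonic bases of Elk3 on opposite strands. The libraries do not mark strand, so reads there cannot be told apart, and Cdk17 had a log2 fold change of -0.23 (SE 0.205).

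Erg and Fli1, the pair that maintains endothelial identity, showed no difference that passed the test. Erg was at 22.8, 19.0 and 22.3 CPM in Control replicates 1, 2 and 3, compared with 19.2, 20.1 and 20.4 CPM in Wt1KO. Fli1 was at 164, 129 and 137 CPM in Control and at 135, 155 and 139 CPM in Wt1KO. Both genes overlapped between genotypes. The log2 fold change of Erg was -0.10 (SE 0.215, 95% interval -0.59 to 0.38) and that of Fli1 was -0.0037 (SE 0.157, 95% interval -0.36 to 0.35). Per kb of exon, Erg stood at 0.175, 0.186 and 0.205 of Fli1 in Control and at 0.179, 0.163 and 0.185 of Fli1 in Wt1KO. The ratios overlapped, with a difference in mean log2 ratio of -0.10.

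Fli1 and Ets1 are neighbours on chromosome 9, 93359 bp apart, and so are Erg and Ets2 on chromosome 16, 115394 bp apart. Within the Fli1 and Ets1 pair the log2 fold changes were -0.0037 and -0.61, and within the Erg and Ets2 pair they were -0.10 and 0.08.

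The remaining 4 widely expressed factors overlapped between genotypes. Etv6, a repressor, was at 38.0, 36.8 and 66.8 CPM in Control replicates 1, 2 and 3, compared with 52.9, 57.3 and 48.3 CPM in Wt1KO, a log2 fold change of 0.16 (SE 0.251). Control replicate 3 set it apart from the other Control libraries. Gabpa, which with GABPB forms the GA-binding protein that serves many housekeeping genes, was at 72.3, 47.6 and 101 CPM in Control and at 69.2, 61.8 and 66.8 CPM in Wt1KO, a log2 fold change of -0.16 (SE 0.251). Control spread over a wider range than Wt1KO. Gabpa shares 23.7% of its exonic bases with Atp5pf on the opposite strand, and reads there cannot be told apart.

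Elf1 and Elf2 encode paralogous factors of the ELF group. Elf1 was at 74.3, 46.8 and 55.3 CPM in Control replicates 1, 2 and 3, compared with 47.0, 45.9 and 59.7 CPM in Wt1KO, a log2 fold change of -0.21 (SE 0.216, 95% interval -0.70 to 0.28). Elf2 was at 56.0, 42.3 and 58.7 CPM in Control and at 46.5, 40.0 and 45.5 CPM in Wt1KO, a log2 fold change of -0.25 (SE 0.190, 95% interval -0.68 to 0.18). Neither passed the test, and the ratio of Elf1 to Elf2 overlapped between genotypes with a difference in mean log2 ratio of 0.05. Etv2 had 0, 25 and 2 counts in Control replicates 1, 2 and 3 and 33, 2 and 1 counts in Wt1KO. It passed the filter through 1 library of each genotype, and its log2 fold change of 0.69 (SE 2.03, 95% interval -3.88 to 5.27) gives no usable estimate at this depth.

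**Figure D3:**
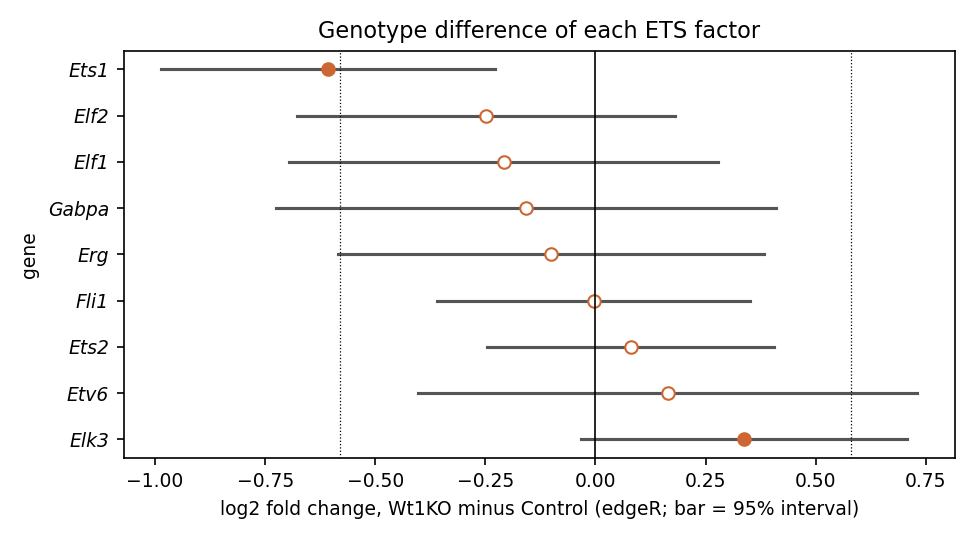
Log2 fold change (Wt1KO minus Control) with its 95% interval for 9 ETS factors, dotted lines at the fold limit of 0.58, and filled points where the libraries do not overlap; Etv2, whose interval runs from -3.88 to 5.27, is left out. Only the Ets1 interval (-0.99 to -0.23) lies away from 0.

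**Figure D4:**
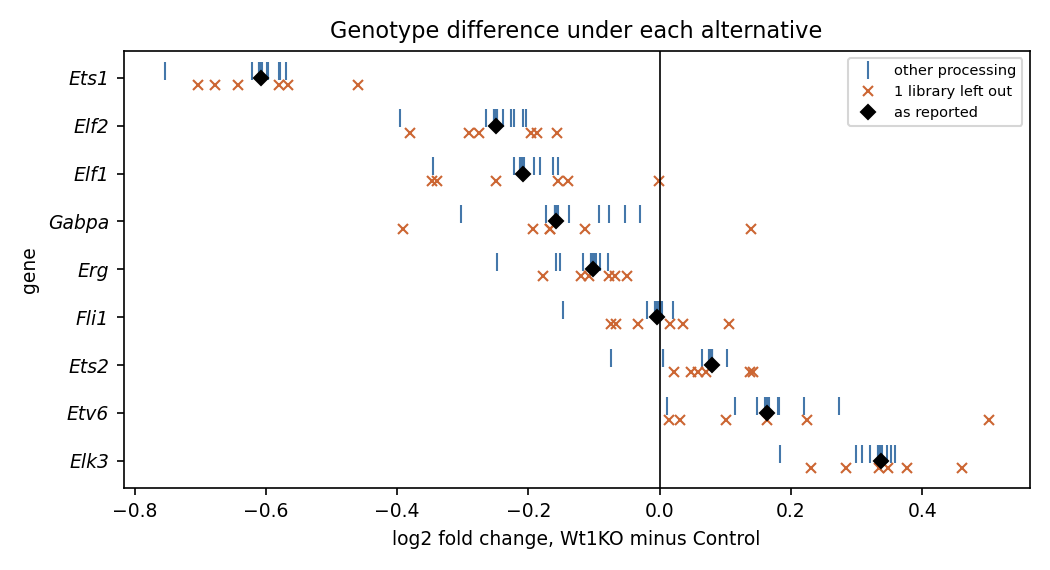
Log2 fold change of 9 ETS factors as reported (diamonds), under other processing (bars) and with 1 library left out (crosses). Ets1 stays negative and Elk3 positive throughout, Ets1 between -0.75 and -0.46, while Fli1 lies on both sides of 0.

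The genes whose pattern over the 6 libraries was most like that of Ets1 were named by the root mean square distance between log2 CPM profiles, each centred on its own mean, among 8471 genes at 10 CPM or more. They were Il2rg at a distance of 0.0428, Kctd12b at 0.0628, Rbpms2 at 0.0672, Oard1 at 0.0673 and Hnrnpl at 0.0714, where Ets1 itself lay 0.336 from a flat profile. The other factors were all farther away, with Elf2 nearest at 0.273 (place 860) and Etv6 farthest of those ranked at 0.571 (place 6576).

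Promoters were examined as the 250 bases before the transcription start in RefSeq (build GRCm38.p6), where 8 of the 10 factors had an entry, 12 entries in all; Ets1 and Fli1 were not matched. An ETS site was searched as CCGGAAG and a WT1 site as GCGTGGG or GCGGGGGCG, each as an exact match on both strands. CCGGAAG was in 1 of 12 promoters of the factors (8.33%) against 6.91% of 32851 promoters, and GCGTGGG also in 1 of 12 (8.33%) against 4.30%, while GCGGGGGCG was in none of the 12 against 2.57%. In 21 promoters of ETS-linked endothelial genes these 3 motifs were in 0, 1 and 4. The GGAA core alone, not marked in the sequences below, was in 10 of 12 promoters of the factors (83.3%) against 93.4% of all promoters. The match to GCGTGGG was in Ets2, on the opposite strand and starting 73 bases before the start, and the match to CCGGAAG was in Gabpa, on the opposite strand and starting 93 bases before it. These 2 are shown because they hold the matches, with the matched letters in capitals, and Elk3 is shown because its libraries did not overlap. The windows are Ets2 at chr16:95702157-95702406 (plus strand), Gabpa at chr16:84834874-84835123 (plus strand) and Elk3 at chr10:93311160-93311409 (minus strand), printed 5′ to 3′.
Ets2: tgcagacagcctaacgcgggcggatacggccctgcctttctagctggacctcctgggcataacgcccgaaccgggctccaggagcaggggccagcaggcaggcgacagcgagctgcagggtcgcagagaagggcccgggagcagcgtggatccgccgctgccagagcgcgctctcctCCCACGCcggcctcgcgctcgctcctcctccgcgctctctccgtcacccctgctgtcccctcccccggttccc
Gabpa: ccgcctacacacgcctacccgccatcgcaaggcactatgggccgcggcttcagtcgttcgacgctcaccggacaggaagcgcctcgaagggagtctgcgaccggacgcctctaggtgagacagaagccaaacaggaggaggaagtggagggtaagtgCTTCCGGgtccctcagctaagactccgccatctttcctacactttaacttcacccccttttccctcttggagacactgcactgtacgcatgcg
Elk3: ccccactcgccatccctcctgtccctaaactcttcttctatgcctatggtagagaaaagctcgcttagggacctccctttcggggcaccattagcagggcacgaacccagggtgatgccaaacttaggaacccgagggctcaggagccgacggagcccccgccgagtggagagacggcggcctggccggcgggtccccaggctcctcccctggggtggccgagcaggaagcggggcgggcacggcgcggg

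A match is a description of letters, not of binding. Ets2, whose promoter holds GCGTGGG, had a log2 fold change of 0.08. Gabpa, whose promoter holds CCGGAAG, had one of -0.16, and neither gene passed the test.

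Of the 16 other ETS family genes, 12 were tested, and 0 were called by edgeR and 1, Spic, by DESeq2. At an unadjusted edgeR p under 0.05, 2 were lower and 0 higher. Over all genes tested, edgeR called 0.0736% and DESeq2 4.67%, and 7.12% were lower and 5.96% higher at that unadjusted p. Of the 12 family genes tested, 9 had a negative and 3 a positive log2 fold change, with a median of -0.16. Elf4, a further ELF member, was at 73.4, 53.3 and 60.1 CPM in Control replicates 1, 2 and 3, compared with 46.3, 50.4 and 43.5 CPM in Wt1KO, a log2 fold change of -0.41 (SE 0.181, edgeR adjusted p = 0.378). Its libraries did not overlap. Of the family genes tested, 0 were higher and 2 lower without overlap, beside 10.3% and 8.97% of all genes. Spi1 and Spic are factors of the myeloid lineage and of macrophages. Spi1 was at 16.3, 31.7 and 10.3 CPM in Control and at 11.9, 10.5 and 8.90 CPM in Wt1KO, and Spic at 5.32, 1.93 and 6.38 CPM in Control and at 0, 0.393 and 0.435 CPM in Wt1KO. The leukocyte marker sums, which include Spi1 itself, were 313 to 927 CPM in Control and 244 to 321 CPM in Wt1KO. These sums moved in the same direction with overlap, and their part in the Spi1 and Spic values was not tested.

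The partners of ETS factors numbered 22, all tested. Of these, edgeR called 0 and DESeq2 called 1, lower in Wt1KO, beside 0.0736% and 4.67% of all genes. At an unadjusted edgeR p under 0.05, 2 were lower and 1 higher, beside 7.12% and 5.96% of all genes. The median log2 fold change of the partners was 0.06. Foxo1, a forkhead factor of the endothelium, was the one called by DESeq2. It was at 69.5, 86.9 and 45.2 CPM in Control replicates 1, 2 and 3, compared with 38.0, 37.1 and 33.6 CPM in Wt1KO, a log2 fold change of -0.89 (SE 0.241, edgeR adjusted p = 0.209). The Foxo1 libraries did not overlap, and Control spread widely. Among the partners 4 were higher and 2 lower without overlap, beside 10.3% and 8.97% of all genes. The study had also singled out Foxo1 in these libraries, so the Foxo1 difference here is not independent evidence. Mef2c had a log2 fold change of -0.34 (SE 0.147) and Jun, which forms AP-1 complexes that act with ETS factors, one of 0.49 (SE 0.156). Sox18 and Sox7, among the partners at the highest level, had log2 fold changes of 0.08 and -0.02. Jun is also in the dissociation response list, of which 13 of 14 genes had a positive log2 fold change.

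Genes known to be bound or driven by ETS factors in ECs were compared as a list of 28. All 28 were tested, and none was called by edgeR or by DESeq2, which called 0.0736% and 4.67% of all genes. At an unadjusted edgeR p under 0.05, 3 were lower in Wt1KO, Nos3, Notch4 and Cd34, beside 7.12% of all genes. At that p, 2 were higher, Emcn and Mmrn2, beside 5.96% of all genes. The median log2 fold change was -0.04, beside -0.03 for all genes. Nos3, endothelial nitric oxide synthase, was at 555, 705 and 517 CPM in Control replicates 1, 2 and 3, compared with 386, 504 and 378 CPM in Wt1KO, a log2 fold change of -0.49 (SE 0.182, edgeR adjusted p = 0.310). Its libraries did not overlap. In this list 1 gene was higher and 3 were lower without overlap, beside 10.3% and 8.97% of all genes. Notch4, a receptor of the Notch pathway, was at 325, 428 and 103 CPM in Control and at 142, 133 and 130 CPM in Wt1KO. Control replicate 3 lay below all 3 Wt1KO libraries. The log2 fold change of Notch4 was -1.08 (SE 0.411), with an adjusted p of 0.319 in edgeR and 0.0880 in DESeq2. The study had listed Notch4 as lower in these same libraries, so its values here are not independent evidence. Emcn, by contrast, was among the venous genes that the study found without significant change. Emcn, which encodes endomucin of venous and capillary ECs, had a log2 fold change of 0.41 (SE 0.161, edgeR adjusted p = 0.332), and the tight junction gene Cldn5 one of -0.02 (SE 0.261).

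**Figure D5:**
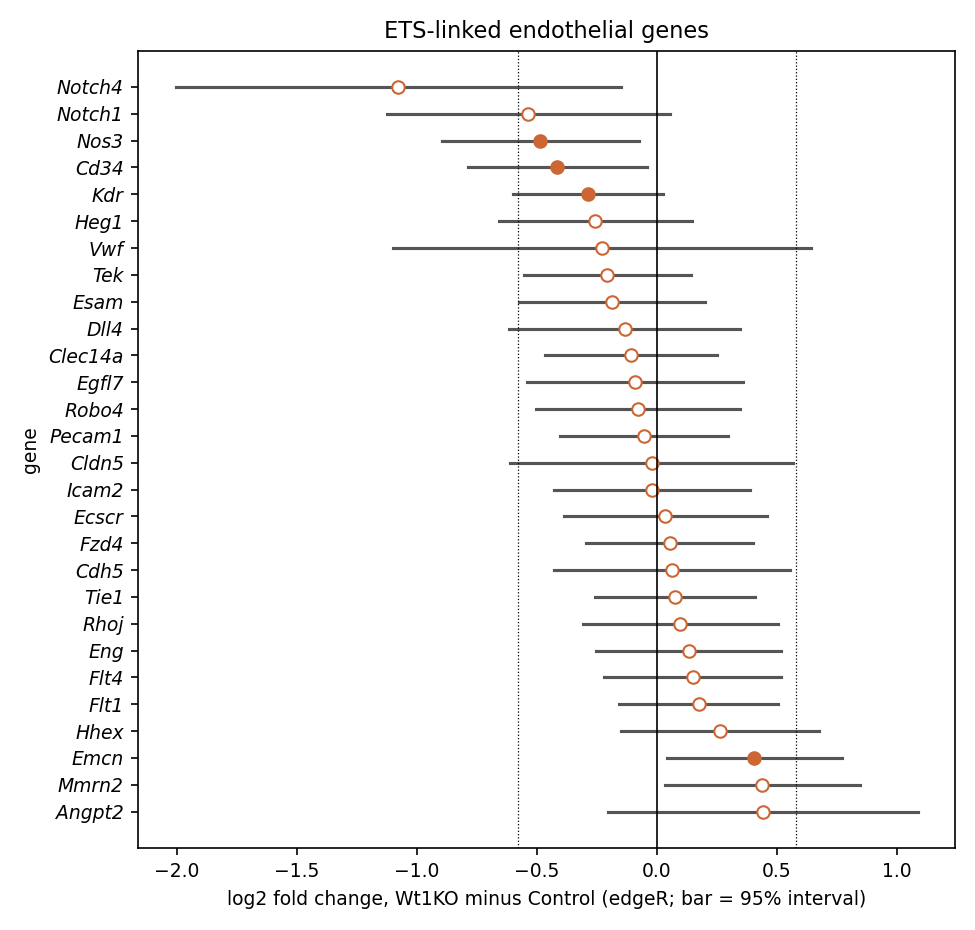
Log2 fold change (Wt1KO minus Control) with its 95% interval for 28 ETS-linked endothelial genes, dotted lines at the fold limit of 0.58, and filled points where the libraries do not overlap. The estimates lie between -1.08 and 0.44 around a median of -0.04.

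Signalling genes of the VEGF to ERK route, which controls ETS1, ETS2 and ELK3, were a list of 23, all tested, with 0 called by edgeR and 0 by DESeq2 and a median log2 fold change of 0.06. At an unadjusted edgeR p under 0.05, 2 were lower and 1 higher, beside 7.12% and 5.96% of all genes. Over all genes, edgeR called 0.0736% and DESeq2 4.67%. Without overlap between genotypes, 2 genes of the list were higher and 2 lower in Wt1KO, beside 10.3% and 8.97% of all genes. The VEGF receptor Kdr, among the lower of these, had a log2 fold change of -0.29 (SE 0.138, edgeR adjusted p = 0.425). The ERK phosphatase Dusp6 had one of 0.24 (SE 0.203), and Spred1, an inhibitor of RAS signalling, one of -0.92 (SE 0.305, edgeR adjusted p = 0.267).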

How the data were processed

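The data are RNA-Seq of ECs sorted for mGFP at E15.5, with 3 Control and 3 Wt1KO libraries. The authors used SMART-seq2 followed by Nextera XT, without molecular identifiers or strand marking. Per the methods, reads were aligned to GRCm39 with STAR 2.7.8a and quantified on GENCODE vM27 with RSEM 1.3.0, and the deposited expected counts are whole numbers that were not normalized. The submitters' processing notes list the GRCm38 build, so the build is uncertain; no deposited coordinates were used.

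Counts were compared in R 4.3.3 with edgeR 4.0.16 (TMM, quasi-likelihood F test), on genes that reached 10 counts in 2 or more libraries, with Benjamini-Hochberg adjustment over 16296 genes. Calls needed an adjusted p under 0.05 with a log2 fold change beyond 0.58 in either direction. Alternatives were DESeq2 1.42.0, limma-voom (3.58.1), other normalizations and filters, a replicate block, length and GC offsets, and each library left out. The code was also run on simulated counts with planted changes larger than any estimated for the factors. That run does not bear on differences as small as those reported here. The standard error was taken from the log2 fold change and its F statistic. Lengths and positions came from GENCODE vM39 (GRCm39).

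Named genes were the 10 members and, per list, those called, up to 5 with the smallest unadjusted p and up to 3 with the highest CPM per kb. The members and lists were chosen with earlier results of these data known. Groups came from the labels; since these name biological replicates without saying how embryos were pooled, p-values measure the spread between these samples.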

Additional observations from a re-analysis of the deposited data

How the results depend on the processing

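The 6 libraries, 3 per genotype, limit what can be said of the less abundant factors. Between tools, the count of all genes called went from 12 with edgeR to 759 with DESeq2, and the factors called from 0 to 1. The unadjusted p with the fold limit gave 1652 genes and 1 factor. No filter gave 296 genes, and at least 10 counts in every library 113. With 1 library left out the genes called ranged from 2 to 37, the factors without overlap from 2 to 5 of 10 (5 without Control replicate 2, where 32.0% of all genes did not overlap; 26.7 to 33.7% over the 6 such fits), and the median log2 fold change of the factors from -0.18 to 0.015. Without TMM, on library size only, that median was -0.20, where the median of all genes also shifted, to -0.18. The TMM factors were 1.00, 1.10 and 1.06 in Control replicates 1, 2 and 3 and 0.915, 0.962 and 0.971 in Wt1KO. They thus followed genotype, and leaving them out lowered the log2 fold change of all 10 factors. The cause of the other shifts, and of the difference in TMM factors, was not tested.

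Of 176 log2 fold changes of the factors under 18 alternatives, 164 kept direction and call, 11 turned sign, and 1, Ets1 under DESeq2, became a call. Fli1, near 0, turned to 0.0010 with limma-voom, 0.020 with upper-quartile normalization, 0.0027 with length and GC offsets, and, with 1 library left out, ranged from -0.074 to 0.11 (positive without Control replicate 1, Wt1KO replicate 1 or Wt1KO replicate 3). Ets2 was -0.074 on library size only, and Gabpa ranged from -0.39 to 0.14 with 1 library left out (0.14 without Control replicate 3). Etv2 was not tested under filterByExpr, with 10 counts in every library, or without Control replicate 2 or Wt1KO replicate 1. Ets1 stayed negative throughout, with edgeR adjusted p from 0.111 to 0.501.

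Same-numbered libraries showed deviation correlations of 0.0566, 0.0045 and 0.0201, and differently numbered libraries between -0.0429 and 0.0250. With so few libraries, these values cannot settle whether the replicate numbers pair them. The study describes a cross that yields both genotypes within a litter, but does not say which of these libraries shared one. With the replicate block 5 genes and none of the factors were called, with length and GC offsets added also 5, and Fli1 was 0.0015 and 0.0038 and Etv2 -0.053 in the second. In Control, 6 of 10 factors kept their place in the order of levels without length scaling and 4 with the longest coding transcript, in Wt1KO 6 and 3, and with 1 library left out between 2 and 8 in Control and between 8 and 10 in Wt1KO.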
